A study of Mus musculus with 4 samples.

Results

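The level of 10 imprinted growth genes was measured in cells of the mouse mammary carcinoma line 4TO7 that had been recovered from tumors of Balb/c mice. They are Igf2, Dlk1, Peg3, Mest, Plagl1, Igf2r, H19, Meg3, Cdkn1c and Grb10, chosen by name as imprinted regulators of growth, and all 10 of 10 were found among the 55385 genes of the table. Bulk RNA libraries were compared, 2 from tumors resistant to immunotherapy with anti-PD-L1, an antibody against the checkpoint ligand PD-L1, and 2 from control tumors. The treatment label of every sample reads untreated while the treatment protocol of every sample names anti-PD-L1 in vivo, so whether control tumors were given the antibody is unclear. No label names a genotype or an age, the same line was used in both groups, and cells were obtained by enzymatic digestion of whole tumors. The series calls the libraries of a group individual biological replicates. Whether each came from its own animal is not stated, and p-values cover the spread between 2 libraries a group, which may be technical.

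Imprinted genes are transcribed from 1 parental allele, which is set by DNA methylation laid down in the germ line and kept through cell division by readers such as the zinc finger protein ZFP57. Paternally expressed members such as Igf2 tend to promote fetal growth and maternally expressed members such as Igf2r, H19, Cdkn1c and Grb10 tend to restrain it. Most are highly active in the embryo and placenta and decline after birth, and the expressed allele of each cannot be read from gene counts such as these.

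The principal finding was a level: 9 of the 10 members were near 0 in resistant and control cells alike, and Igf2r was the exception. Near 0 means here a mean under 10 normalized counts (reads divided by a size factor of each library) over the 4 libraries, which were read to a depth of 46999812 and 45666470 reads in resistant cells and 49592054 and 46179416 reads in control cells. All 5 paternally expressed members and 4 of the 5 maternally expressed ones were below that level, as were 44.2% of 21897 protein-coding genes and 74.3% of all genes in the table. Added together, the 9 near-0 members drew 15 and 18 reads in the resistant libraries, against 3 and 18 reads in the control libraries. A count of 0 allows up to 3 reads, or 0.0638 and 0.0657 RPM (reads scaled to library depth) in the resistant libraries and 0.0605 and 0.065 in the control libraries. Reads amplified without molecular identifiers are not independent molecules, so these limits and the intervals given with read ratios hold for counting error alone.

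**Figure D1:**
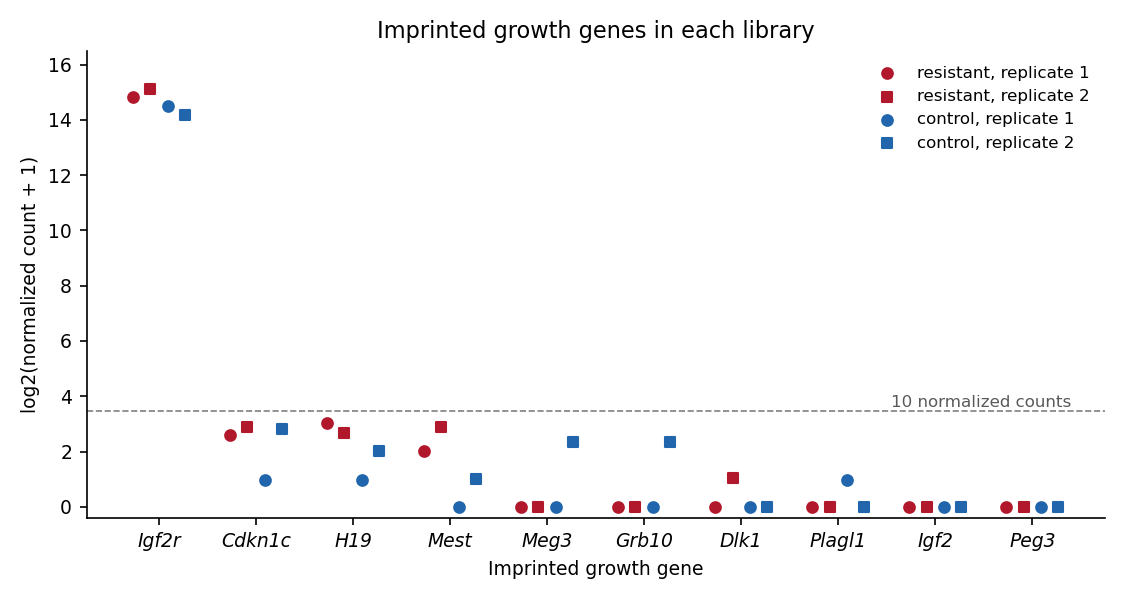
Each point is 1 library, resistant in red to the left of control in blue, and the vertical axis is log2(normalized count + 1) for each of the 10 members. Igf2r stands at 18594 normalized counts or more in every library, and the other 9 genes lie below the dashed line at 10 normalized counts in every library.

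Promoter windows are shown for the expressed member and for 3 near-0 ones, because the cells did express Zfp57, whose protein is known in mouse to bind the methylated letters TGCCGC at imprinting control regions. They were drawn around annotated starts and not around such control regions, and whether any window lies in a control region was not checked. The windows are RefSeq sequence of GRCm38.p6, from 250 bases before to 50 bases after an annotated start, and the table held 15 windows for 8 of the 10 members, without H19 and Cdkn1c. Capitals mark TGCCGC or its reverse complement GCGGCA.
Igf2r, chr17:12769657-12769956, minus strand: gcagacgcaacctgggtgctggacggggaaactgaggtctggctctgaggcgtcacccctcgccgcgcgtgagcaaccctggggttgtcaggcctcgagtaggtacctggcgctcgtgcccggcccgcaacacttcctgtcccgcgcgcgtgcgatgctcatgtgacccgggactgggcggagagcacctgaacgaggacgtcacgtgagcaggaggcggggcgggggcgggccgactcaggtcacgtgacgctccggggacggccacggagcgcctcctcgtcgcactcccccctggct
Mest, chr6:30737800-30738099, plus strand: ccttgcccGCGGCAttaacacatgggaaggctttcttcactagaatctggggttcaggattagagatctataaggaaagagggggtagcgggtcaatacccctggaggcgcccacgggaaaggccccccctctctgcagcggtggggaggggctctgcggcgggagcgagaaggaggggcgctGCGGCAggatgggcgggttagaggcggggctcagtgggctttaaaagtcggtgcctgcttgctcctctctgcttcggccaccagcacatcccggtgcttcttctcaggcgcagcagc
Plagl1, chr10:13090582-13090881, plus strand: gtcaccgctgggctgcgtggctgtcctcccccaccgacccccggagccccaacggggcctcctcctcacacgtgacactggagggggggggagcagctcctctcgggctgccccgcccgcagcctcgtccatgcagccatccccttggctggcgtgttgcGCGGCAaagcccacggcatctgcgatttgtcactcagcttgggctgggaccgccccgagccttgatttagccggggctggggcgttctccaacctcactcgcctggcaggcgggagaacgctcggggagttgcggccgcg
Grb10, chr11:12037371-12037670, minus strand: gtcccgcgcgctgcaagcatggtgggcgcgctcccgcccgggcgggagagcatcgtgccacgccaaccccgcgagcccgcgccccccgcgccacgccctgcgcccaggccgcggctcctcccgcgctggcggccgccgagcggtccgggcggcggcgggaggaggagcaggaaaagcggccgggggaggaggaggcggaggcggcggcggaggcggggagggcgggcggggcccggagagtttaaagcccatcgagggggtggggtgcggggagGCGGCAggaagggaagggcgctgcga

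The letters TGCCGC, searched on both strands, stood in 6 of the 15 member windows, which belong to 5 genes (Grb10, Igf2, Meg3, Mest and Plagl1), and in 11.6% of all 32851 promoter windows of the same length. Both Mest windows with the letters overlap almost wholly and share their matches. The Igf2r window held none of them and 34 CpG dinucleotides, against 17 in the Mest window shown, 26 in that of Plagl1, 45 in that of Grb10 and a median of 7 over all promoters. The 3 near-0 windows shown were picked because they hold the letters. Windows of near-0 members without them had 9 CpG for Dlk1, 13 for Peg3, 8 for the other Mest start, 9 for the other Grb10 start, 1 for the other Meg3 start and 2 to 24 for the other 3 Igf2 starts. Methylation was not measured, and a match to these letters is a description of the window and not a binding site. Whether the letters bear on the level of a member was not tested.

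Igf2 and Peg3, both paternally expressed, had no read in any library. Igf2 encodes insulin-like growth factor 2, the fetal growth factor that signals through the IGF1 receptor and the insulin receptor (ENSMUSG00000048583.16, chromosome 7, 142650766 to 142666816, GRCm38). Of its 5723 exonic bases, 3596 are shared with Gm49394, an annotated gene on the same strand that itself had 0 and 0 reads in resistant and 1 and 0 reads in control libraries. A counter that discards reads lying in both genes would leave only the other 2127 bases for Igf2, and the handling of such reads is not stated. Peg3 encodes a large zinc finger protein (ENSMUSG00000002265.17, chromosome 7, 6703892 to 6730431). It had 0 reads. Its 13324 exonic bases, from an annotation with another version of this identifier, are shared with no other annotated gene.

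Dlk1, which encodes a membrane ligand related to the Notch ligands, had 0 and 1 reads in the resistant libraries and 0 and 0 in the control libraries. Plagl1, a zinc finger transcription factor gene, had 0 and 0 reads in resistant and 1 and 0 in control libraries. Single reads of this kind are within the limit that a count of 0 allows. Mest, which encodes a protein of the alpha/beta hydrolase fold, had 3 and 6 reads in resistant cells, against 0 and 1 in control cells. The groups did not overlap for Mest, and its reads were 9.56 times as many in resistant as in control libraries after scaling (95% exact interval 1.32 to 419). Groups also did not overlap for 56.7% of genes averaging 10 or more normalized counts, a share that leaves near-0 genes out. Of the 3945 exonic bases of Mest, 912 overlap Copg2 on the opposite strand, a gene with 5075 and 4561 reads in resistant and 5280 and 5438 in control libraries. The sources used here do not give the strand setting, so the few Mest reads cannot be told apart from reads of Copg2.

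Among the maternally expressed members, H19 and Cdkn1c were the most read after Igf2r. H19, the long noncoding RNA that shares its control region with Igf2 (ENSMUSG00000000031.16, chromosome 7, 142575529 to 142578143), had 7 and 5 reads in resistant cells and 1 and 3 in control cells. These values did not overlap, but the ratio of 3.19 had a 95% exact interval of 0.966 to 13.6, which includes equal levels. Cdkn1c, which encodes the cyclin-dependent kinase inhibitor p57 (ENSMUSG00000037664.13, chromosome 7, 143458339 to 143461050), had 5 and 6 reads in resistant and 1 and 6 in control cells, a ratio of 1.67 (95% exact interval 0.591 to 5.08). The Cdkn1c values overlapped between groups, and 625 of its 2039 exonic bases lie opposite the antisense gene Gm44732, which had no read. Per kilobase of exon, Cdkn1c stood at 2.83 normalized counts in resistant cells, against 1.72 in control cells, and H19 at 2.54 in resistant cells, against 0.810 in control cells.

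Meg3, a long noncoding RNA transcribed beside Dlk1, and Grb10, an adaptor that dampens insulin and IGF1 receptor signalling, showed the same counts: 0 and 0 reads in resistant cells and 0 and 4 reads in control cells. Every read of both genes thus came from control replicate 2. That library also held 10 reads of Thy1 and 13 of Col3a1, genes of fibroblasts, against 0 and 0 reads of Thy1 and 1 and 0 of Col3a1 in the resistant libraries and 0 of each in control replicate 1. Thy1 and Col3a1 are named after their values were seen. Pdgfra, Pdgfrb, Lum, Dcn, Pi16 and Fap of the same list were all lower in control replicate 2 than in control replicate 1. The whole list of 9 fibroblast markers, led by Pdgfra and Pi16, summed to 8337 and 9975 normalized counts in resistant cells and 10358 and 6956 in control cells. Dpt had 0 reads in every library. The part of other cells in the reads of Meg3 and Grb10 was not tested.

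When every gene with at least 1 read was fitted with limma, 8 members entered and none passed, with 2 of them, Mest and Igf2r, under an unadjusted p of 0.05. In that fit the log2 fold change of H19 was 1.36 ± 0.55 (adjusted p = 0.293) and that of Mest 1.95 ± 0.60 (adjusted p = 0.212). At a few reads per library such values lean on the pseudocount of 1. That fit detected no change of a near-0 member at this depth.

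Igf2r encodes the cation-independent mannose 6-phosphate receptor, which carries lysosomal enzymes from the Golgi and takes IGF2 to the lysosome for degradation (ENSMUSG00000023830.14, chromosome 17, 12682406 to 12769664, minus strand). It had 29228 and 35469 normalized counts in resistant cells, against 23049.5 and 18594 in control cells. Both resistant libraries were above both control libraries, the lower resistant one by 1.27-fold over the higher control one, while the libraries of a group differed by 1.21-fold in resistant and 1.24-fold in control cells. The means were 32348 ± 4413 in resistant and 20822 ± 3151 in control cells (SD, n = 2 each), or 3475 normalized counts per kilobase of exon in resistant cells and 2237 in control cells. On that scale Igf2r lay at percentile 95.2 of the 14238 genes tested.

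In resistant cells Igf2r rose 1.56-fold, or by 0.64 ± 0.15 on the log2 scale (± SE; limma adjusted p = 0.0395). It was the 1 member tested, and 5.32% of all tested genes were called higher in resistant cells, 4.73% lower and 10.1% in either direction. Groups did not overlap for 56.7% of tested genes, so that feature alone is common here. The call ended when resistant replicate 1 (0.78, adjusted p = 0.0929) or resistant replicate 2 (0.50, adjusted p = 0.331) was omitted, with the spread then taken from the control pair, and with no filter on low values (adjusted p = 0.15). Fewer cells of a kind and less RNA per cell cannot be told apart in bulk libraries.

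**Figure D2:**
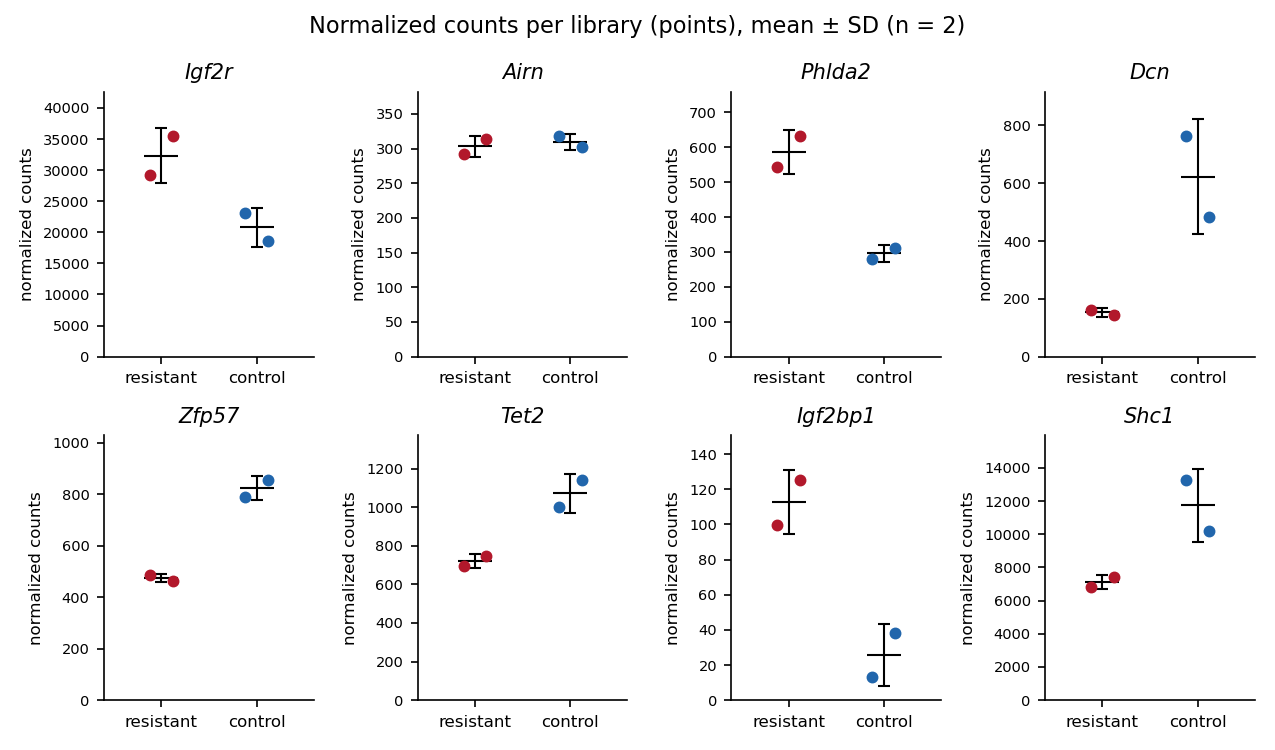
Points are libraries and horizontal marks with bars are mean ± SD (n = 2) of normalized counts, resistant left of control, on axes that start at 0. Igf2r, Phlda2 and Igf2bp1 are higher in both resistant libraries, Dcn, Zfp57, Tet2 and Shc1 are lower in both, and Airn overlaps between groups at 292 and 314 in resistant against 318 and 302 in control cells.

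Airn is the paternally expressed noncoding RNA that starts within Igf2r, runs antisense to it and silences the paternal copy in most mouse tissues (ENSMUSG00000078247.5, chromosome 17, 12741311 to 12860136, plus strand). It had 292 and 314 normalized counts in resistant cells, against 318 and 302 in control cells, and the groups overlapped. Its log2 fold change of -0.03 ± 0.17 did not pass (limma adjusted p = 0.929). Per kilobase of annotated exon, Airn stood at 84.3 normalized counts in resistant cells, against 86.1 in control cells, far below Igf2r in both. The exons of the pair do not overlap, but Airn exons can lie in introns of Igf2r, so without strand unspliced Igf2r reads and Airn reads cannot be told apart. The maternally expressed transporter genes Slc22a2 and Slc22a3 of the same domain had no read in any library.

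Genes around Igf2r tended the same way, a comparison chosen after its values were seen. Of 18 other tested genes starting within 2 Mb of it, 14 had positive log2 fold changes, 3 rose and 0 fell. Of all 14238 tested genes, 7162 had positive values, 5.32% rose and 4.73% fell. The median of the neighbours was 0.36, against 0.13 for the 724 tested genes of chromosome 17 and 0.0023 for all tested genes. The chaperonin subunit gene Tcp1 (0.57 ± 0.13, adjusted p = 0.0330), the mitochondrial superoxide dismutase gene Sod2 (0.54 ± 0.11, adjusted p = 0.0287) and 2700054A10Rik (0.83 ± 0.18, adjusted p = 0.0312) were those that passed in limma. Like that of Igf2r, these calls ended with either resistant library omitted and with no filter on low values. Igf2r was exceeded by 2 of the 18. Whether position had a part in its rise was not tested.

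**Figure D3:**
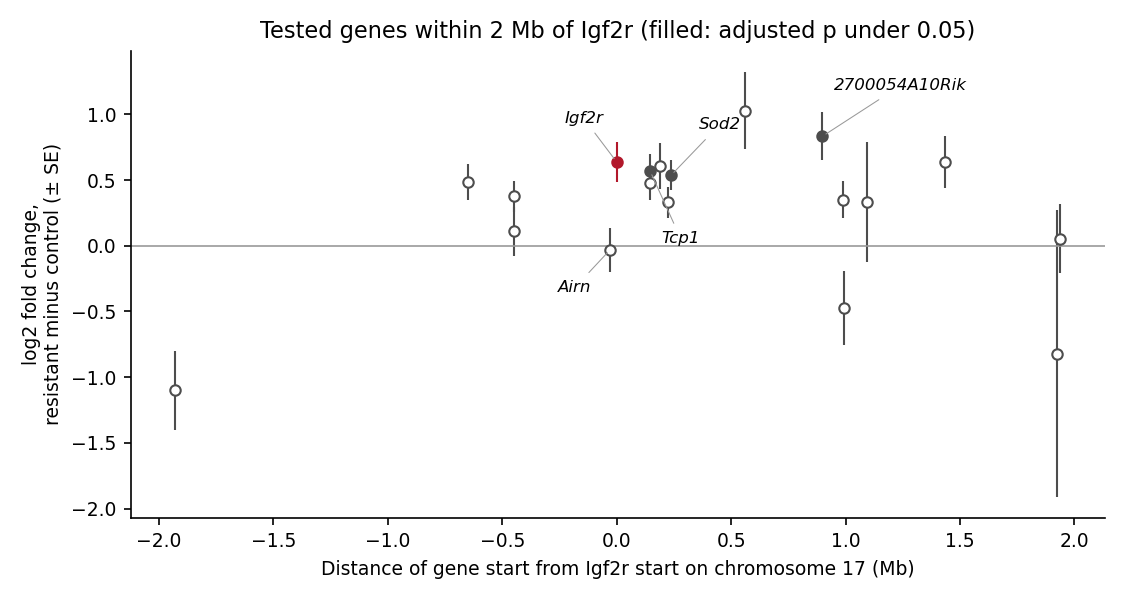
The horizontal axis is the distance in Mb of each gene's start from that of Igf2r on chromosome 17 and the vertical axis is the log2 fold change, resistant minus control, with its SE. Filled points passed at an adjusted p under 0.05 in limma, and 14 of the 18 neighbours lie above 0.

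The 3 tested genes whose library values were most like those of Igf2r, by Euclidean distance between log2 values centred on each gene's mean over the 4 libraries, were Ube2cbp, Synj2 and Gm42568. Their distances were 0.034, 0.038 and 0.043 log2 units. Synj2, an inositol phosphatase gene also on chromosome 17 (5941280 to 6044290), had 10116 and 12160.0 normalized counts in resistant cells, against 7697 and 6342 in control cells, and rose by 0.67 ± 0.14 (limma adjusted p = 0.0268), a call that ended without resistant replicate 2 and with no filter. Ube2cbp on chromosome 9 did not pass (adjusted p = 0.161), with 123 and 148 in resistant cells, against 98.9 and 77.7 in control cells. Gm42568 on chromosome 3 was close to the filter, at 11.2 and 13.9 in resistant and 8.65 and 7.06 in control cells (adjusted p = 0.427). With 4 libraries such likeness is weakly defined.

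Other imprinted genes, listed from general knowledge, were near 0 in part as well. Of 62 further imprinted genes listed, 61 were matched, 15 of them had no read, 16 were near 0 and 30 were tested. Under the filter were also 44.2% of protein-coding genes and 74.3% of all genes in the table. In limma 1 of the 30 rose, 1 fell and 28 did not pass, where 5.32% of all tested genes rose and 4.73% fell. Their median log2 fold change was 0.037, against 0.0023 over all tested genes. Listed neighbours were also under the filter for Peg3, where Usp29, Zim1 and Zfp264 had no read, for Dlk1 and Meg3, where Rtl1, Rian, Mirg and Dio3 were all under the filter, and for Grb10, where Ddc and Cobl were. In the domain that runs from Igf2 and H19 to Cdkn1c and Phlda2, 9 of 12 listed genes were tested. The filter takes no account of gene length. Per kilobase of exon, Kcnq1ot1 (0.338 resistant, 0.287 control) stood below the near-0 members H19 and Cdkn1c. Tspan32 (2.53 resistant, 2.28 control) was close to Cdkn1c. Cd81 (3770 resistant, 3614 control) and Nap1l4 (2713 resistant, 2387 control) stood far above them. Near-0 members thus lay beside some clearly expressed genes there, but not every tested gene was one. At the far end of the range, Gnas, the stimulatory G protein alpha subunit gene, had 66255 and 70166 normalized counts in resistant cells, against 70793 and 69770.2 in control cells.

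Phlda2, a maternally expressed gene that limits placental growth, lies in the same domain as Cdkn1c (ENSMUSG00000010760.5, chromosome 7, 143501545 to 143503150). It had 542 and 632 normalized counts in resistant cells, against 279 and 313 in control cells, and rose by 0.99 ± 0.17 (limma adjusted p = 0.0134). Its neighbour Slc22a18, a transporter gene named here after its values were seen, had 112 and 119 in resistant and 72.0 and 45.4 in control cells. The groups did not overlap, but Slc22a18 did not pass (1.00 ± 0.29, adjusted p = 0.0763). Dcn, the gene of the matrix proteoglycan decorin, imprinted in mouse placenta, fell by 1.99 ± 0.24 on the log2 scale (adjusted p = 0.00343). It had 163 and 143 normalized counts in resistant cells, against 763 and 483 in control cells, and it also belongs to the fibroblast markers above.

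Snrpn, a paternally expressed spliceosomal protein gene of the Prader-Willi domain that is also named after its values were seen, had 195 and 182 normalized counts in resistant cells, against 25.9 and 95.8 in control cells. Its control libraries differed more than 3-fold, and the log2 fold change of 1.89 ± 0.53 did not pass (limma adjusted p = 0.0661). Leaving out control replicate 1 gave 0.97 and leaving out control replicate 2 gave 2.81. The spread in those fits comes from the resistant pair alone, which leaves out the difference between the control libraries. Snrpn passed in limma voom on all 4 libraries (adjusted p = 0.0480). Snrpn shares 589 exonic bases with Gm38393 and 216 with Snurf on the same strand, so its reads are uncertain.

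**Figure D4:**
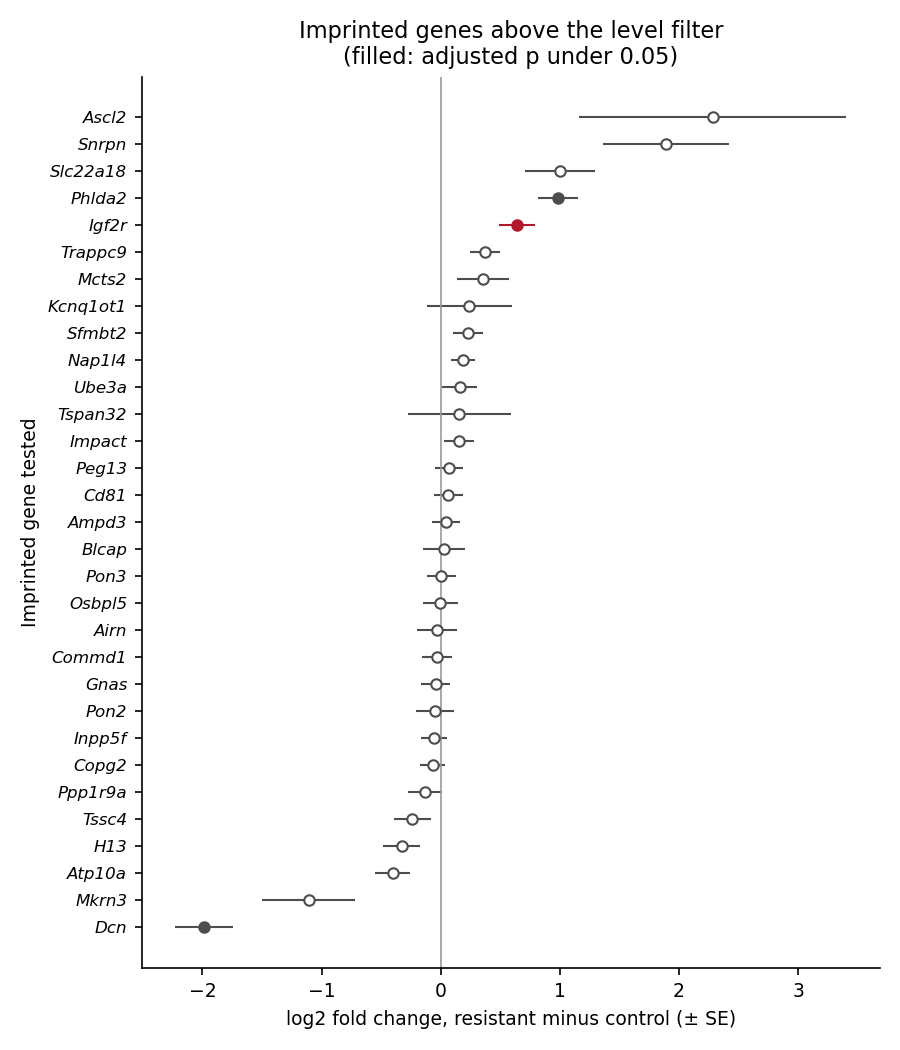
Log2 fold change, resistant minus control, with its SE for Igf2r in red and the 30 other imprinted genes that were tested, filled where the adjusted p was under 0.05 in limma. Igf2r and Phlda2 rose, Dcn fell, and the other 28 did not pass.

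A list of 18 genes that set, read, keep or remove DNA methylation at imprints, the Tet genes among those that remove it, was measured as well. Of these, 15 were tested, Dnmt3l was near 0 and Dppa3 and Ctcfl had no read. Of the 15, 0 rose and 2 fell in limma (5 had positive values), with a median log2 fold change of -0.059. Over all tested genes 5.32% rose and 4.73% fell. Zfp57, which protects methylated imprints, had 484 and 462 normalized counts in resistant cells, against 789.6 and 856 in control cells, and fell by 0.80 ± 0.14 on the log2 scale (adjusted p = 0.0151). The 5-methylcytosine dioxygenase gene Tet2 had 696 and 748 in resistant cells, against 1000.02 and 1143 in control cells, and fell by 0.57 ± 0.14 (adjusted p = 0.0434). The maintenance methyltransferase gene Dnmt1 did not pass, at 10144 and 10357 normalized counts in resistant cells, against 10581 and 11927 in control cells. Trim28, the corepressor that ZFP57 recruits, did not pass either, at 16355 and 17355 in resistant cells, against 17093 and 17626 in control cells.

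The partners of IGF2 were present although Igf2 itself had no read. Igf1r, the receptor through which IGF2 signals, had 9638 and 10929 normalized counts in resistant cells, against 10440.2 and 11182 in control cells, and the insulin receptor gene Insr had 7401 and 8299 in resistant and 6772 and 7155 in control cells. Igf1, the other ligand, was low, at 10.2 and 22.5 in resistant and 9.61 and 7.06 in control cells. M6pr, the smaller cation-dependent mannose 6-phosphate receptor, which does not bind IGF2, had 7862 and 7001 in resistant and 5757 and 6753 in control cells. None of these 4 genes passed. Of 17 signalling partners 15 were tested, 1 rose and 1 fell in limma, and the median log2 fold change was 0.041. The shares over all tested genes were 5.32% risen and 4.73% fallen.

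Igf2bp1, an RNA-binding protein gene whose product binds Igf2 mRNA, had 99.9 and 125 normalized counts in resistant cells, against 13.4 and 38.3 in control cells, and rose by 2.24 ± 0.47 (limma adjusted p = 0.0265). Leaving out control replicate 1 gave 1.52 for Igf2bp1 and leaving out control replicate 2 gave 2.97. Shc1, an adaptor of growth factor receptors, had 6817 and 7439.5 in resistant cells, against 13296 and 10194 in control cells, and fell by 0.71 ± 0.14 on the log2 scale (adjusted p = 0.0240). The calls of Phlda2, Zfp57, Tet2, Igf2bp1 and Shc1 ended with either resistant library omitted and with no filter on low values, whereas that of Dcn held in each of these fits. All 5 non-imprinted paralogs of members were expressed and none passed. Among them are 2 kinase inhibitor genes related to Cdkn1c. Cdkn1a had 3421 and 4148 normalized counts in resistant cells, against 3364 and 2247 in control cells, and Cdkn1b had 6994 and 7147 in resistant cells, against 5611 and 5959.6 in control cells.

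The labelled cell type was checked against its markers. The epithelial keratin genes Krt8 and Krt18 and the carcinoma marker Spp1 were abundant, and Krt5 and Krt14 had no read. The mesenchymal gene Vim was abundant too, at 129420 and 143375 normalized counts in resistant cells, against 155221 and 124788 in control cells. Of 8 tested epithelial and carcinoma markers 2 rose and 1 fell in limma, where 5.32% of all tested genes rose and 4.73% fell. Krt19 (298 and 425 against 48.0 and 41.4) and Krt7 (90.7 and 135 against 34.6 and 24.2) rose, resistant against control. Epcam fell, at 87.6 and 114 in resistant cells, against 341 and 246 in control cells. The list was thus mixed. The leukocyte gene Ptprc had 0 and 2 reads in resistant and 2 and 1 in control cells. Of 52 markers of other cell types 18 were above the filter, of which 7 rose and 1 fell, against 5.32% and 4.73% of all tested genes. The 11 markers of skeletal muscle, a tissue in which H19, Igf2 and Meg3 are active in development, summed to 832 and 1021 normalized counts in resistant cells, against 136 and 127 in control cells, while Myod1, Myf5, Myog and Pax7 had no read in any library. All 5 tested muscle markers had positive log2 fold changes, and Tnni1, Chrnd and Tnnt3 were the 3 that rose. Tnni1 had 461 and 577 normalized counts in resistant cells, against 41.3 and 31.3 in control cells. Chrnd had 183 and 250 in resistant cells, against 23.1 and 22.2 in control cells. Tnnt3 had 138 and 132 in resistant cells, against 46.1 and 37.3 in control cells. The 10 leukocyte markers, whose sum is nearly all Cd68, came to 10582 and 9990.1 in resistant cells, against 3236 and 6361 in control cells. The part of such cells in the values of Igf2r, H19 and Mest was not tested.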

How the data were processed

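The 4 RNA sequencing libraries were grouped by source label and tied to table columns by sample title. Values are deposited on a log2 scale, as log2 of a size-factor-normalized count plus 1. For their making by the authors, STAR, DESeq2 and mm10 are named per the submitters' processing notes, without version or role. Undoing the log gave whole reads for 100% of values within a tolerance of 0.01 reads, and so the depth. Identifiers, version removed, were joined to symbols for 55144 of 55385 genes. Gene positions and exon lengths come from GENCODE M21 (GRCm38, the same assembly as mm10). Identifiers matched it with their version for 54487 genes. The versions of Peg3, Airn, Gnas and Rian differed, so their exons may not be those that were counted. The 14238 genes averaging 10 or more normalized counts were fitted in R 4.3.3 with limma 3.58.1 (eBayes with trend, all 4 libraries, no block) on the deposited values. Two-sided p-values were adjusted over all of them by the Benjamini-Hochberg method at 0.05. The step was tested on simulated reads. Alternatives were other pseudocounts, filters and scalings, limma voom on the recovered reads, blocks and leaving out each library. Named were all members, list genes past the threshold (at most 4 a list) and the 3 genes most like the leading member. Other names were chosen after their values were seen or are given as levels. Intervals are 95% exact binomial. Members and lists were chosen with earlier results of these data known.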

Additional observations from a re-analysis of the deposited data

How the results depend on the processing

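The rise of Igf2r kept its direction in all 13 alternatives, at log2 fold changes of 0.48 to 0.79 when 1 library was left out and 0.60 to 0.64 otherwise. Members called numbered 0 of 8 with no filter (2 at an unadjusted p under 0.05) and 0 to 1 with 1 library left out. Genes called over the table numbered 1432, against 311 with no filter (126 higher, 185 lower, of 26782 tested) and 434 to 4056 with 1 library left out. Leaving out a library leaves 1 in its group, assumed to vary like the other group. Airn, at -0.03, lay between -0.082 and 0.021 in those fits, positive without resistant replicate 1 (0.021) and without control replicate 1 (0.0077), and the cause was not tested. With the replicate number as a block, 1213 genes were called, Igf2r held (adjusted p = 0.0368), Tet2, Tcp1, Sod2 and 2700054A10Rik no longer passed and Snrpn did. The numbers do not pair the samples by the labels. Deviations of same-numbered libraries correlated at -0.357, so a crossed replicate block, added after seeing the data, was fitted and called 4584 genes. A block chosen from that correlation tends by construction to lower the residual spread and raise the calls, so its count does not bear on pairing. In all 4 fits with 1 library left out and with scaling by total reads, 9 members were near 0. Depth limits the near-0 members to statements on level.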

Other observations

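Mirg and Rian, noncoding RNAs downstream of Meg3 on chromosome 12, were under the filter, were chosen after their values were seen, and are given as read counts with no test. Mirg had 4 and 3 reads in resistant cells, against 15 and 11 in control cells, and Rian had 1 and 0 reads in resistant cells, against 5 and 3 in control cells. Their groups did not overlap. That was so for 56.7% of tested genes, a share that does not cover genes under the filter such as these. Meg3 itself was read in control replicate 2 and in no other library. Ascl2, a maternally expressed transcription factor gene of the placenta in the domain of Cdkn1c, had 21 and 14 reads in resistant cells, against 0 and 14 in control cells (limma adjusted p = 0.244, not passed).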
